A study of Homo sapiens with 12 samples.

Results

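Binding of 2 proteins in HEK293T cells, INTS13 and HDGF, was compared region by region. A reproducible region of a protein was a stretch of merged overlapping peaks that held a peak of each of its 2 replicate lists. There were 44211 such HDGF regions and 203599 such INTS13 regions, 247810 in all, of the 325633 reproducible regions of the 5 proteins of the series. Each region was then put in a class by whether it overlapped a region of the other protein by 1 bp or more. The classes held 33864 HDGF regions with INTS13, 10347 HDGF regions without INTS13, 26712 INTS13 regions with HDGF and 176887 INTS13 regions without HDGF. HEK293T is a transformed line derived from human embryonic kidney, and all libraries came from wild type, otherwise untreated cells fixed with 1% formaldehyde for 5 min. Chromatin was precipitated with commercial antibodies against INTS13 or HDGF and sequenced as pairs of 150 bp reads. The question asked by the series was whether INTS13 and its transcription factor partners occupy the same places in the genome. Separate cultures are not named for the 2 replicates of a protein in the labels, and differences between them may be technical only. A peak list holds no expression values, so the identity of the cells could not be checked against marker genes.

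INTS13 is a subunit of Integrator, a complex that binds RNA polymerase II and cleaves nascent RNA. Integrator forms the ends of small nuclear RNAs and also ends transcription early at many protein-coding and enhancer units. INTS13 sits in a module with INTS10 and INTS14 and has been linked to recruitment of the complex by sequence-specific factors, whereas INTS11 is the subunit that cuts RNA. HDGF, hepatoma-derived growth factor, is a chromatin protein with a PWWP domain, a fold that in this family reads methylated lysine 36 of histone H3, a mark laid down over transcribed gene bodies.

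The HDGF lists held 147715 and 114789 peaks on chromosomes 1 to 22 and X, covering 88.4 and 64.3 Mb. The INTS13 lists held 416964 and 341913 peaks and covered 350.7 and 343.1 Mb. Median peak widths were 419 and 402 bp for HDGF and 550 and 655 bp for INTS13. The authors' fold of a peak, its height over the caller's background, ran from 2.37 to 10.5 and from 2.56 to 10.9 for HDGF, and from 1.73 to 16.4 and from 1.63 to 13.8 for INTS13. Peaks of a list took few distinct p-values, 35 and 32 for HDGF and 92 and 104 for INTS13, so strength is given as a percentile of a peak within its own list by p-value, with ties averaged. The INTS13 lists were longer and covered more of the genome, which bears on every share below. Peaks were crowded in 382 of 3043 bins of 1 Mb, called dense here, where the peak count exceeded 2 times the list's mean bin (median over the 10 lists of the series). Dense bins held 77.7% of the HDGF regions with INTS13, 41.2% of the HDGF regions without, 73.8% of the INTS13 regions with HDGF and 35.4% of the INTS13 regions without. Main values are therefore given with and without them.

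Promoters from the classes of gene start with either or both proteins are printed first, because the classes differed in base composition. None is printed from starts with neither. Of 19974 protein-coding genes, 15812 had a start in the promoter table. Regions of both proteins lay within 1 kb of 2335 of these starts (14.8%), of HDGF only at 137 (0.866%), of INTS13 only at 7204 (45.6%), and of neither at 6136 (38.8%). INTS13 was thus at 60.3% and HDGF at 15.6% of the starts. The following sequences are from RefSeq, assembly GRCh38.p14, and run 5′ to 3′ on the gene's strand from 250 bases before the start to 50 after it, with every CG dinucleotide in capitals. They were chosen after their values were seen. SF3B4, a subunit of the splicing complex SF3b (chr1:149927754-149928053, minus strand), and DDX56, a nucleolar RNA helicase (chr7:44573859-44574158, minus strand), had both proteins at the start:
SF3B4: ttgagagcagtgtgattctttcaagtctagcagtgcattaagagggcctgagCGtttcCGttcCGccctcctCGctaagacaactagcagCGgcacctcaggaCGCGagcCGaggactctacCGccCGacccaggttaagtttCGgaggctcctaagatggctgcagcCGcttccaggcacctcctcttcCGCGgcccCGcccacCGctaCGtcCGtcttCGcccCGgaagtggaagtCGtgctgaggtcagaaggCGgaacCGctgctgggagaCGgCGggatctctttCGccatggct
DDX56: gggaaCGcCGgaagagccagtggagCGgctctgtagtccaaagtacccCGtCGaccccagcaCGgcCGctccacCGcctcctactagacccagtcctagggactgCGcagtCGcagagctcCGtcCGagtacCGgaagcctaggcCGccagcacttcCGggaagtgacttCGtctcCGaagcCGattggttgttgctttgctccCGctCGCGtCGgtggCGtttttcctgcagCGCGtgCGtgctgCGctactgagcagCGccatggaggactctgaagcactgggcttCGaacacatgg
PNPLA8, a phospholipase (chr7:108528129-108528428, minus strand), and RBBP9, a serine hydrolase (chr20:18497176-18497475, minus strand), had HDGF and no INTS13 peak of either list within 1 kb of the start:
PNPLA8: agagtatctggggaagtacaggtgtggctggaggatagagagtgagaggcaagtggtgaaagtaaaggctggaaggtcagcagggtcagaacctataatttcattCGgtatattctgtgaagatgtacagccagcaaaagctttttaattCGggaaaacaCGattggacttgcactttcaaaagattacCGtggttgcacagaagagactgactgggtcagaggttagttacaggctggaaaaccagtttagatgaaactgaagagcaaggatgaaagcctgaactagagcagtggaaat
RBBP9: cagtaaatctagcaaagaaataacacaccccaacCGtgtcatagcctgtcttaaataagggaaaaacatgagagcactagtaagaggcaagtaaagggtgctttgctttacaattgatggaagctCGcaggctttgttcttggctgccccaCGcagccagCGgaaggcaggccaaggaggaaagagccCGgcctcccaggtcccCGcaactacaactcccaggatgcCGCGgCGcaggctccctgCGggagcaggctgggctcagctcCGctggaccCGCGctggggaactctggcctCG
CPLX2, a synaptic complexin (chr5:175796283-175796582, plus strand), and GAST, the gene of the hormone gastrin (chr17:41712081-41712380, plus strand), had INTS13 and no HDGF peak of either list:
CPLX2: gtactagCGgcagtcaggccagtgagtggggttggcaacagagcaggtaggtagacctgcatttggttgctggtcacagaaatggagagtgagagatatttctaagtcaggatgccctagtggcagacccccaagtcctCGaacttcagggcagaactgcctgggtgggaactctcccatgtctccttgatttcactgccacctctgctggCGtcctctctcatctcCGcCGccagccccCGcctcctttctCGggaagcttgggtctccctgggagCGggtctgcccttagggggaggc
GAST: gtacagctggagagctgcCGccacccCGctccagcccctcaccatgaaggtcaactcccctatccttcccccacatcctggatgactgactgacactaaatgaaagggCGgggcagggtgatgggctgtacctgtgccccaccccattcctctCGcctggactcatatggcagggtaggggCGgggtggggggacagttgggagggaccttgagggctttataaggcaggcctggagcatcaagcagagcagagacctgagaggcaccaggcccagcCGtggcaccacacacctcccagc

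The promoter of SF3B4 held 26 CG dinucleotides and that of DDX56 held 29. There were 4 in PNPLA8, 14 in RBBP9, 8 in CPLX2 and 6 in GAST. Within 1 kb of the SF3B4 start, the strongest HDGF peaks had folds of 3.75 and 5.81 in replicates 1 and 2, and the strongest INTS13 peaks had folds of 3.38 and 2.94. At the DDX56 start, HDGF folds were 2.76 and 3.72 and INTS13 folds were 3.64 and 1.96. At PNPLA8, HDGF folds were 3.16 and 3.25. At RBBP9 they were 2.96 and 3.48. At CPLX2, INTS13 folds were 3.64 and 3.13, and at GAST they were 3.38 and 2.42. The 4 printed promoters with a single protein were poorer in CG than their classes as a whole. The median count of CG dinucleotides in the 300 bases was 27 at starts with both proteins, 22 at starts with HDGF only, 24 at starts with INTS13 only and 14 at starts with neither, beside 22 over all promoters. Median GC content was 66.0%, 61.7%, 64.7% and 57.7% in the same order. The GC box letters GGGCGG, searched on both strands, occurred in 73.2% of the promoters with both, 56.2% with HDGF only, 64.7% with INTS13 only and 45.6% with neither, against 58.5% of all promoters. TATAAA, searched likewise, ran the other way, in 5.44%, 11.7%, 7.15% and 14.1%, against 9.64% of all. The letters CCAAT were in 36.1%, 41.6%, 34.7% and 38.2%, against 36.3% of all promoters. CCGGAA, the core of ETS motifs, was in 27.2%, 24.8%, 25.1% and 18.4%, against 22.8%. With dense bins left out, the GC box was in 75.5%, 58.7%, 66.2% and 45.5% of the 4 classes, the same order. A match to these letters is a description and not a binding site.

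Most HDGF regions overlapped INTS13, and few INTS13 regions overlapped HDGF. INTS13 was present at 76.6% of the HDGF regions, and HDGF at 13.1% of the INTS13 regions. Taking 1 list of each protein at a time, the shares were 62.5% ± 2.22 (SD, n = 4 pairs of lists, which share lists) of the HDGF peaks and 17.1% ± 2.32 of the INTS13 peaks. Outside dense bins, 55.4% of 13637 HDGF regions and 5.77% of 121198 INTS13 regions overlapped the other protein, against 86.0% and 23.9% inside them. Without HDGF replicate 1, using every peak of the other HDGF list, HDGF was at 22.7% of the INTS13 regions, and without HDGF replicate 2 at 27.8%. These values also moved when fewer peaks were kept, which changes list length and peak strength together. With the 10000 strongest peaks of each list, 55.1% of 3043 HDGF regions overlapped INTS13 and 34.2% of 4414 INTS13 regions overlapped HDGF.

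The overlaps were mostly of whole HDGF regions. INTS13 covered a median of 100% of the length of an HDGF region with INTS13, and 64.8% of these regions were covered at 90% or more. HDGF covered a median of 46.6% of an INTS13 region with HDGF. Of the INTS13 regions with HDGF, 6403 held 2 or more HDGF regions, and 1 held 46. Edge contacts were rare, with 253 overlaps of 50 bp or less. Among the 10347 HDGF regions without INTS13, 204 had a gap of 50 bp or less to an INTS13 region, 39.5% had one of 1 kb or less and 11.2% had one over 10 kb. No INTS13 peak of either list overlapped 5661 of them (54.7%), a peak of 1 list overlapped 4466, and peaks of both lists that did not overlap each other lay in 220. The class without INTS13 is thus partly made of regions that missed INTS13 in 1 replicate only. Counting a peak of either INTS13 list raised the share of HDGF regions with INTS13 to 87.2%.

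Shared regions were wider and ranked higher than unshared ones. Median width was 1014 bp for HDGF regions with INTS13 and 712 bp for those without, and 2162 and 1098 bp for INTS13 regions with and without HDGF. A region's percentile is that of the strongest peak in it, averaged over the 2 lists of its protein. A wide region of many peaks can thus rank higher. The median HDGF percentile was 66.4 with INTS13 and 51.5 without, and the median INTS13 percentile was 85.3 with HDGF and 55.2 without. Across deciles of HDGF strength, the share with INTS13 went from 61.0% in the weakest to 95.2% in the strongest. Across deciles of INTS13 strength, the share with HDGF went from 2.49% to 50.7%. Away from dense bins the same shares went from 40.7% to 74.2% and from 1.62% to 19.9%. Over all bins, median width rose along the deciles from 597 to 2652.5 bp for HDGF and from 723 to 3188 bp for INTS13. The part of width in these shares was not tested.

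**Figure D1:**
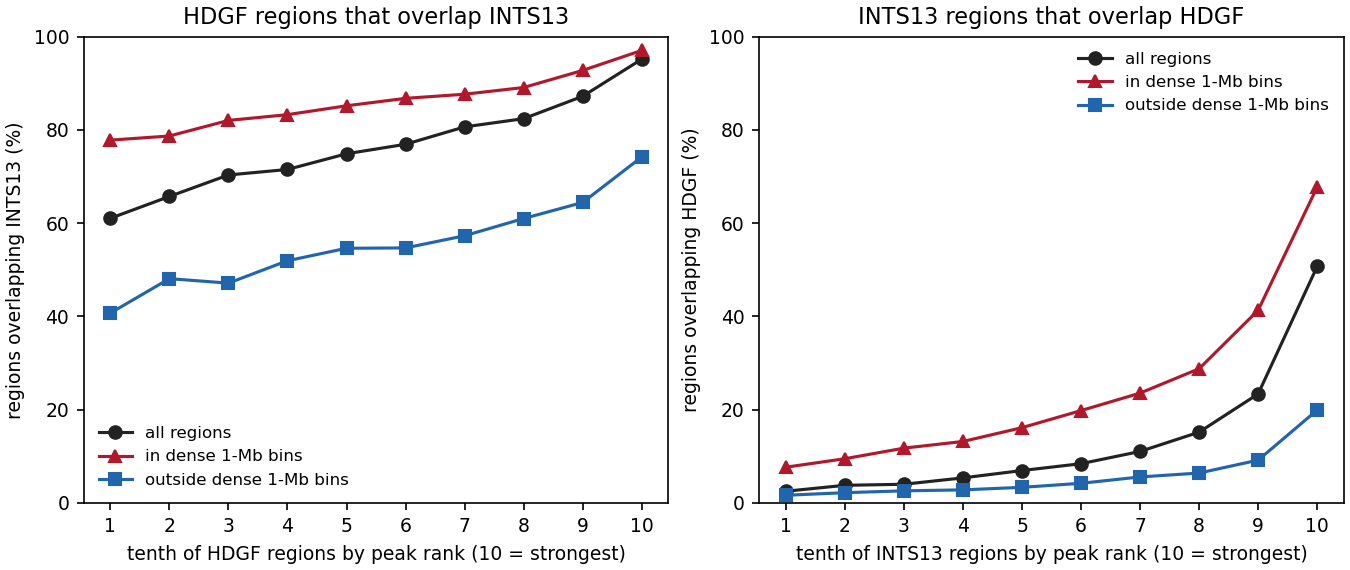
Percentage of HDGF regions that overlap INTS13 (left) and of INTS13 regions that overlap HDGF (right), by decile of strength from weakest (1) to strongest (10), for all regions, those in dense 1-Mb bins and those outside them. The strongest decile reaches 95.2% for HDGF and 50.7% for INTS13, and the points outside dense bins end at 74.2% and 19.9%.

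The classes lay in different places relative to protein-coding genes. HDGF regions without INTS13 were the most genic of the 4 classes, with 82.1% of their midpoints inside a gene, against 68.0% of the HDGF regions with INTS13. INTS13 regions with HDGF had 68.8% of midpoints inside a gene, and INTS13 regions without HDGF had 52.1%. With single pairs of lists, the shares were 76.3% ± 0.402 for HDGF without INTS13 and 66.5% ± 0.174 for HDGF with INTS13 (SD, n = 4 pairs of lists). For INTS13 they were 67.8% ± 0.228 with HDGF and 50.4% ± 0.471 without. In both cases the difference was larger than the spread over pairs of lists. Outside dense bins, the shares were 84.0%, 76.1%, 76.0% and 52.9% for HDGF without, HDGF with, INTS13 with and INTS13 without the other protein. For HDGF the order of the classes was the same at each strength. Among the strongest of 3 equal groups of HDGF regions, 81.5% of midpoints were inside a gene without INTS13 and 67.3% with it, among the middle group 82.8% and 68.7%, and among the weakest 81.8% and 68.0%. Over 50 kb from any protein-coding gene lay 19.0% of the INTS13 regions without HDGF and 12.5% of those with HDGF, beside 11.1% and 7.01% of the HDGF regions with and without INTS13. With dense bins left out, these shares were 17.9% and 4.49% for INTS13, and 3.90% and 4.28% for HDGF with and without INTS13, so the order of the HDGF classes turned.

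Gene ends showed the opposite order to gene interiors for HDGF. Within 1 kb of a start or far end of a protein-coding gene lay 14.4% of the HDGF regions with INTS13 and 7.03% of those without, and 19.6% of the INTS13 regions with HDGF and 8.09% of those without. By midpoint alone, the shares were 8.20% and 4.51% for HDGF and 8.94% and 5.18% for INTS13. A midpoint takes width out of the placement only. The classes still rest on overlap of whole regions, and the part of width in them was not tested. With single pairs of lists the difference was 4.76 ± 1.40 percentage points for HDGF and 7.28 ± 0.909 for INTS13 (SD, n = 4 pairs of lists). Outside dense bins it was 11.3 and 18.9 points. Taking each library by itself, without classes, 7.78% and 8.74% of HDGF peaks and 7.08% and 7.10% of INTS13 peaks overlapped a gene end. The difference of 1.17 percentage points had an exact two-sided permutation p of 0.333, the smallest that 2 libraries against 2 can give. It turned to -3.78 points among the 10000 strongest peaks of each list and to -0.32 points with a 500 bp window. Without HDGF replicate 2 it was 0.692 points.

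**Figure D2:**
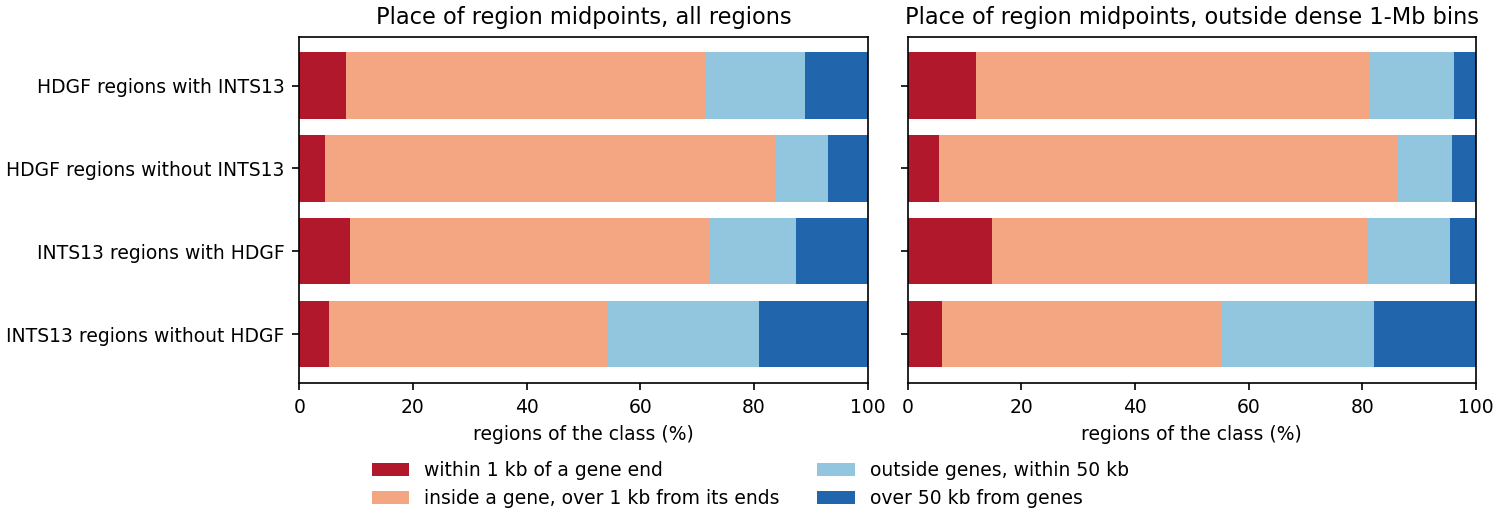
Share of region midpoints (percent of each class) within 1 kb of a protein-coding gene end, deeper inside a gene, outside genes within 50 kb, and farther than 50 kb, for all regions (left) and outside dense 1-Mb bins (right). HDGF regions without INTS13 have the longest bar segment inside genes (79.4% of all regions of the class) and INTS13 regions without HDGF the longest beyond 50 kb (19.0%).

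Along genes longer than 5 kb, HDGF regions without INTS13 were weighted to the first part of the gene body. Of their midpoints inside such genes, 17.4% fell in the first of 10 equal parts of the gene and 8.64% in the last. HDGF regions with INTS13 had 13.5% in the first part and 11.6% in the last. INTS13 regions with HDGF had 15.1% and 10.3%, and INTS13 regions without HDGF had 11.1% and 10.8%, near an even spread. Away from dense bins the first part held 21.0% of the HDGF regions without INTS13, 15.9% of those with it, 18.9% of the INTS13 regions with HDGF and 12.1% of those without. Measured from the nearest start, 1.27% of the HDGF regions without INTS13 lay within 1 kb, 12.4% lay 1 to 5 kb downstream and 20.5% lay 5 to 20 kb downstream. For HDGF regions with INTS13 these shares were 3.39%, 10.1% and 16.5%. HDGF without INTS13 was thus less frequent at the start itself and more frequent 5 to 20 kb downstream. Outside dense bins the shares within 1 kb were 1.88% without INTS13 and 5.09% with it, and 5 to 20 kb downstream 22.6% and 20.3%. At 1 to 5 kb downstream the order turned once dense bins were set apart. The shares were 16.3% without INTS13 and 16.9% with it outside them, and 6.91% and 8.13% inside them.

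**Figure D3:**
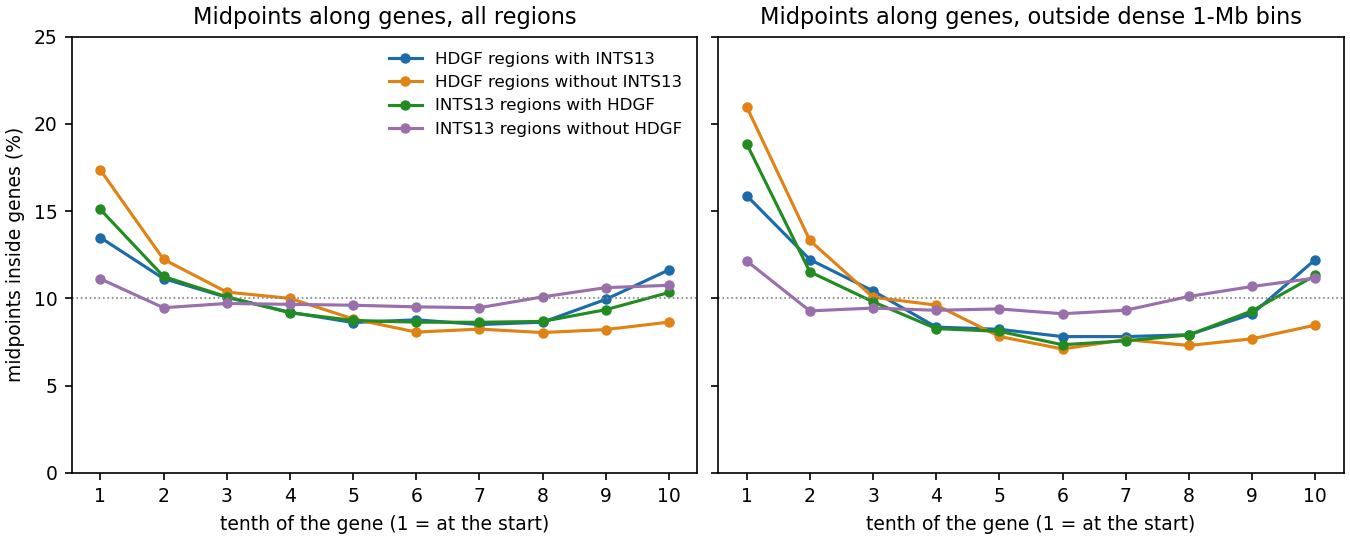
Percentage of midpoints inside protein-coding genes over 5 kb that fall in each of 10 equal parts of the gene from start (1) to far end (10), for the 4 classes, with all regions left and those outside dense 1-Mb bins right; the dotted line marks an even spread. HDGF regions without INTS13 reach 17.4% and 21.0% in the first part and are lowest of the 4 classes in the last, at 8.64% and 8.47%.

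By rank over both HDGF lists, the strongest HDGF region without INTS13 lay far from protein-coding genes, at chr13:63244747-63246870, with folds of 5.13 and 5.57. The next was in NPM1, the gene of the nucleolar chaperone nucleophosmin, at chr5:171404759-171405955, with its midpoint 17.5 kb past the start and folds of 5.32 and 5.34. Others lay in USP24, a deubiquitinase gene (chr1:55204045-55205472, folds 4.54 and 5.34), CEP43, a centrosome gene (chr6:167000601-167001206, 1.51 kb past the start, folds 4.54 and 5.11), and PPP4R2, a phosphatase subunit gene (chr3:72997930-72999231, 1.77 kb past the start, folds 4.54 and 4.88). All 5 lacked an INTS13 peak of either list. When dense bins were left out, the first was again CEP43, followed by CBX3, the gene of heterochromatin protein HP1 gamma (chr7:26207060-26208907, folds 4.34 and 5.11), and RBMX, a splicing regulator gene (chrX:136877754-136878519, folds 4.54 and 4.65). ERMAP (chr1:42824634-42825153) and U2SURP, which encodes a protein of the U2 small nuclear ribonucleoprotein (chr3:143015781-143017701), both had folds of 4.14 in replicate 1, and of 4.65 and 5.11 in replicate 2.

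HDGF regions without INTS13 had their midpoints in 3680 protein-coding genes, of a median length of 55.8 kb, against 24.2 kb for all. Of these genes, 83.5% had an INTS13 region at an end, against 63.7% of all protein-coding genes, and 91.5% held the midpoint of an INTS13-containing region, against 69.1% of all. The part of gene length in these shares was not tested. The chromatin remodeller gene ARID1B held 35 HDGF regions without INTS13, MLLT3 held 27, and CDC42BPA and DACH1 each held 25, all in dense bins and beside 53, 14, 75 and 92 HDGF regions with INTS13. Outside dense bins, the axon guidance receptor gene ROBO1 held 21 HDGF regions without INTS13 and 1 with it, and ADGRL2 held 20 and 2. Long genes can hold more regions of every class, and ROBO1 also held 34 INTS13 regions without HDGF and ADGRL2 held 80.

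The other 3 proteins of the series were at a higher share of the regions where HDGF and INTS13 met than of the regions of either alone. INTS11, the catalytic subunit, overlapped 54.6% of the HDGF regions with INTS13 and 10.5% of those without. It overlapped 55.1% of the INTS13 regions with HDGF and 15.9% of those without. ZEB1, a zinc finger repressor, overlapped 23.2% and 3.74% of the HDGF regions with and without INTS13, and 25.8% and 3.01% of the INTS13 regions with and without HDGF. ZNF609 overlapped 16.6% and 3.85%, and 20.2% and 2.01%. Without the dense bins the INTS11 shares were 11.8% and 1.15% for HDGF and 15.4% and 3.77% for INTS13. There ZEB1 was at 1.64% and ZNF609 at 1.31% of the HDGF regions with INTS13. Shared regions were also wider, and the part of width in these shares was not tested.

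Sharing differed between chromosomes. INTS13 was at 94.1% of the HDGF regions of chromosome 22, 86.5% of those of chromosome 19 and 85.5% of those of chromosome 13. It was at 42.7% of the HDGF regions of chromosome 4 and 47.2% of those of chromosome 2. HDGF was at 41.5% of the INTS13 regions of chromosome 13 and 28.3% of those of chromosome 22, and at 2.33% of those of the X chromosome. The X chromosome had 435 HDGF regions and 11493 INTS13 regions, while chromosome 4 had 429 HDGF and 3650 INTS13 regions and chromosome 8 had 464 and 3904. INTS13 was at 78.4% of the HDGF regions of the X chromosome.

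At protein-coding genes, HDGF without INTS13 was rare. Regions within 1 kb of either gene end placed 4269 genes with both proteins (21.4%), 158 with HDGF only (0.791%), 8461 with INTS13 only (42.4%) and 7086 with neither (35.5%). HDGF was at 22.2% and INTS13 at 63.7% of all genes. INTS13 was at 96.4% of the genes with HDGF and at 54.4% of the genes without it. In the rest of the genome, outside dense bins, INTS13 was at 92.2% and 49.1%, and at 54.5% of all genes there, with both proteins at 11.5% of 15445 genes, HDGF only at 0.971%, INTS13 only at 43% and neither at 44.6%. Among the 10000 strongest peaks of each list, 58.4% of 731 genes with HDGF had INTS13. The HDGF-only genes mostly had an unreproduced INTS13 peak. Of the 158, a peak of 1 INTS13 list lay at the ends of 112, peaks of both lists at 33, and no INTS13 peak at 13.

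Both ends of a gene were not alike. Among 13914 genes longer than 4 kb with a known strand, HDGF was at 15.7% of the starts and 14.3% of the far ends, while INTS13 was at 61.1% of the starts and 42.4% of the far ends. INTS13 was at 94.2% of the starts with HDGF and at 86.7% of the far ends with HDGF. The median gene length was 17.9 kb for genes with both proteins, 37.2 kb with HDGF only, 26.9 kb with INTS13 only and 26.4 kb with neither. Among other gene types, INTS13 was at 94.1% of the long noncoding RNA genes with HDGF, 95.1% of the tRNA genes, 88.9% of the microRNA genes and 85.5% of the pseudogenes. Over all genes of these types, with or without HDGF, INTS13 was at 42.9%, 44.2%, 43.6% and 28.4%. The lowest share among the gene types counted was at small nucleolar RNA genes, which guide chemical modification of ribosomal RNA and mostly lie in introns of other genes. There 184 of 1196 genes had both proteins, 45 had HDGF only and 198 had INTS13 only, so that INTS13 was at 80.3% of those with HDGF and at 31.9% of all. Of the 45, 22 had no INTS13 peak of either list, among them SNORD4A, SNORD42A, SNORD72 and SNORD73A.

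Genes with both proteins and the highest ranks lay mostly in dense bins. By the lowest percentile over the 4 lists, they were NBPF1, TLE4, PCDH9, CSNK1E, the overlapping readthrough gene TPTEP2-CSNK1E, EPHX1, SDE2, TMEM184B, ARF1 and C1orf35, of which TLE4 alone was outside them. At NBPF1 (gene ID 55672, chr1:16562423-16613564), the strongest HDGF peaks had folds of 8.48 and 8.59 and the strongest INTS13 peaks folds of 8.66 and 7.12. NBPF1 belongs to a family of near-identical copies, and how reads with several matches were placed is not stated, so its values are uncertain. At TLE4, a Groucho-family corepressor gene (gene ID 7091, chr9:79571965-79726882), HDGF folds were 8.28 and 7.90 and INTS13 folds were 9.69 and 7.12. TLE4 was not a narrow site at a gene end. HDGF regions with INTS13 of 23500, 18857, 86595 and 64013 bp lay side by side over chr9:79549653-79743374, the whole gene and its flanks. Dense bins were set by peak counts and not by width, so such wide regions can lie outside them. At CSNK1E, a casein kinase gene (gene ID 1454, chr22:38290691-38318084), they were 7.49 and 7.20, and 6.49 and 4.96. High ranks in all 4 lists at these genes follow from the rule that chose them.

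Outside dense bins, the genes reported were TLE4, GPRIN2, CDKN2A, DDX56, SF3B4, TROAP, C1QL4, APRT and C19orf12. CDKN2A encodes the cell cycle inhibitors p16 and ARF (gene ID 1029, chr9:21967752-21995324). It had HDGF folds of 4.34 and 4.88 and INTS13 folds of 3.38 and 2.94 at its ends. APRT, of purine salvage (gene ID 353, chr16:88809339-88811928), had HDGF folds of 5.52 and 5.81 and INTS13 folds of 3.81 and 2.81.

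HDGF-only genes with no INTS13 peak were few. With a peak of both HDGF lists at their ends there were 11 of them. The first 10 were RMDN2, GJB7, PAXBP1, LOC128031836, PHC1, PNPLA8, KCNAB1, MAT2B, RBBP9 and TNIP3, and SMAD9 came next. RMDN2, a gene of a microtubule-associated protein (gene ID 151393, chr2:37920901-38067138), had HDGF folds of 3.55 and 4.18. PHC1, a Polycomb gene (gene ID 1911, chr12:8913843-8941467), had folds of 3.94 and 3.25. MAT2B, which encodes the regulatory subunit of a methionine adenosyltransferase (gene ID 27430, chr5:163503064-163519354), had folds of 2.96 and 3.72. The lowest percentile over both lists was 80.8 at RMDN2 and 26.4 at TNIP3. Of the 112 HDGF-only genes with an INTS13 peak of 1 list, 3 examples were singled out after their values were seen. EEF1A1, the translation elongation factor gene, had HDGF percentiles of 94.9 and 98.5 and an INTS13 percentile of 91.2 in replicate 1, with no peak in replicate 2. TPT1 had HDGF percentiles of 87.5 and 84.6, and 78.8 for INTS13 in replicate 1 only. RAN, the nuclear transport GTPase gene, had 40.7 and 90.4, and 83.0 for INTS13 in replicate 1 only. At these genes INTS13 was present in 1 list, and their class rests on the requirement for both.

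INTS13-only genes were many, and 4376 of the 8461 had no HDGF peak of either list. The highest ranking were PSG2, GPRASP1, PTPRN2, ELFN2, GSTM3, PGBD5, GPRASP2, ZCCHC18, CT47C1 and NXF3, all in dense bins, with GPRASP1, GPRASP2, ZCCHC18, CT47C1 and NXF3 on the X chromosome. PSG2 belongs to the pregnancy-specific glycoproteins, a family of close copies (gene ID 5670, chr19:43064209-43082701), and had INTS13 folds of 4.33 and 3.79. GSTM3, a glutathione transferase gene (gene ID 2947, chr1:109733937-109741038), had folds of 4.07 and 3.53. Outside the dense bins they were CPLX2, SMOC1, ZSWIM4, CXorf58, LOC102723655, SV2A, ZNF660-ZNF197, GAST, IGSF9 and SLC11A1. SV2A, a synaptic vesicle gene (gene ID 9900, chr1:149903318-149917844), had INTS13 percentiles of 98.7 and 96.6 and no HDGF peak. It lies close to SF3B4 on chromosome 1, where both proteins were present. SLC11A1, a metal transporter gene of macrophages (gene ID 6556, chr2:218382273-218396894), had folds of 3.46 and 2.94.

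Lists of genes with a common role were set beside all protein-coding genes, where 21.4% had both proteins. Cytosolic ribosomal protein and splicing factor genes had both most often of the 20 lists. Of 84 cytosolic ribosomal protein genes, 52 had both, 2 had HDGF only, 15 had INTS13 only and 15 had neither. RPL3, a large-subunit protein gene, had HDGF folds of 6.31 and 6.04 and INTS13 folds of 4.67 and 3.46, and RPS2 had 5.13 and 5.11, and 4.15 and 3.40. The HDGF-only members were RPL23A and RPS27A, each with an INTS13 peak of 1 list. Of 35 splicing factor genes, 21 had both, 1 had HDGF only (SRSF5), 7 had INTS13 only and 6 had neither. SRSF5 had INTS13 peaks of both lists at its ends, at percentiles of 89.1 and 74.6, that formed no reproducible region. SRSF3 had HDGF folds of 4.54 and 3.72 and INTS13 folds of 2.77 and 2.35. Outside dense bins, both proteins were at 33 of 62 cytosolic ribosomal protein genes and at 10 of 22 splicing factor genes, beside 11.5% of all genes there.

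Chaperone, sterol and replication genes also exceeded the share of all genes. Both proteins were at 12 of 25 heat shock and chaperone genes, 11 of 23 cholesterol synthesis genes, 17 of 41 translation initiation factor genes, 14 of 37 DNA replication genes and 26 of 77 mitochondrial ribosomal protein genes. The chaperone gene HSP90AB1 had HDGF folds of 3.55 and 3.72 and INTS13 folds of 3.72 and 2.81. In the same order, the counts outside dense bins were 9 of 22, 3 of 14, 10 of 31, 7 of 30 and 10 of 53. The share then stood at 18.9% for mitochondrial ribosomal protein genes and 21.4% for cholesterol synthesis genes, nearer the 11.5% of all genes there. HDGF-only members of these lists were CCT2, EIF3M, MCM6, ORC1, MRPL17, MRPL19 and MRPL50. MRPL19 had INTS13 peaks of both lists at its ends, and each of the others had a peak of 1 list. Of 39 proteasome genes, 10 had both (25.6%) and 16 had INTS13 only (41.0%), near the 21.4% and 42.4% of all genes. PSMA1 and PSMC6 were in the HDGF-only class, each with an INTS13 peak of 1 list.

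INTS13 was at 61.1% of the genes of the Integrator and at 88.2% of those of the HDGF family and lysine 36 methylation, beside 63.7% of all genes. Of 18 Integrator subunit genes, INTS1, INTS11, INTS14 and INTS15 had both proteins, 7 had INTS13 only and 7 had neither, with 22.2% in the class with both. At INTS11, HDGF folds were 4.34 and 5.57 and INTS13 folds were 3.38 and 2.29. At the INTS13 gene itself INTS13 folds were 2.77 and 2.68, with no HDGF peak. Of 17 genes of the HDGF family and of lysine 36 methylation, BRPF1, HDGF, HDGFL2, KMT2A, MEN1, MORF4L1 and NSD1 had both, 8 had INTS13 only and 2 had neither. KMT2A is a methyltransferase of lysine 4 and MEN1 its partner, so these members do not do what the list's name says. At the HDGF gene, HDGF folds were 4.14 and 4.65 and INTS13 folds were 4.33 and 3.40. Among the 10 genes of this list outside dense bins, 1 had both, KMT2A. Both proteins were at 6 of 15 RNA polymerase II subunit genes (40%) and 5 of 23 pausing and elongation factor genes (21.7%), beside 21.4% of all genes. INTS13 only was at 10 of the 23 (43.5%), near the 42.4% of all genes. With dense bins left out, both were at 3 of 11 and 2 of 20, beside 11.5% of all genes there.

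INTS13 was at 83.3% and HDGF at 33.3% of the immediate early genes, beside 63.7% and 22.2% of all genes. Among the 16 outside dense bins HDGF was at 12.5%, the share of all genes there. Of 24 such genes, including the EGR and NAB genes, 8 had both and 12 had INTS13 only. EGR1, a growth-induced transcription factor gene, had INTS13 folds of 4.07 and 2.55 and an HDGF peak in replicate 1 only, with a fold of 3.55. JUN had HDGF folds of 4.14 and 3.95 and INTS13 folds of 3.98 and 3.20. Of 20 p53 target genes, 8 had both (40%), 1 had HDGF only (RRM2B, with an INTS13 peak of 1 list) and 7 had INTS13 only (35%). Of 18 tricarboxylic acid cycle genes, 6 had both (33.3%) and 8 had INTS13 only (44.4%). Over all genes these shares were 21.4% for both and 42.4% for INTS13 only. With dense bins left out, both were at 4 of 15 p53 target genes (26.7%) and 1 of 11 tricarboxylic acid cycle genes (9.09%). The share of all genes there was 11.5%.

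Replication-dependent histone genes were INTS13 genes with little HDGF. Of 69, INTS13 only was at 51, both proteins at 4 (H2BC26, H2AC25, H4C15 and H3C6), and neither at 14. INTS13 was at 79.7% of them and HDGF at 5.80%, against 63.7% and 22.2% of all genes. Lists of genes expressed mainly in differentiated tissues were counted likewise. Of 16 kidney tubule and podocyte genes, none had a reproducible HDGF region and 10 had INTS13 (62.5%), near the 63.7% of all genes. CDH16, LRP2, SLC22A8 and SLC34A1 had an HDGF peak of 1 list. Of 19 synapse genes, 2 had both (10.5%) and 9 had INTS13 only (47.4%). Of 20 liver and erythroid genes, 3 had both (15%) and 5 had INTS13 only (25%). Over all genes these shares were 21.4% and 42.4%. INTS13 was at 57.9% of the synapse genes and 40% of the liver and erythroid genes, beside 63.7% of all genes. Outside dense bins, HDGF was at none of the 13 kidney genes, 13.3% of the 15 synapse genes and 5.88% of the 17 liver and erythroid genes. It was at 12.5% of all genes there, so the synapse share was near that of all genes. Of 390 olfactory receptor genes, which are silent in most tissues, 1 had both, 36 had INTS13 only and 353 had neither.

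**Figure D4:**
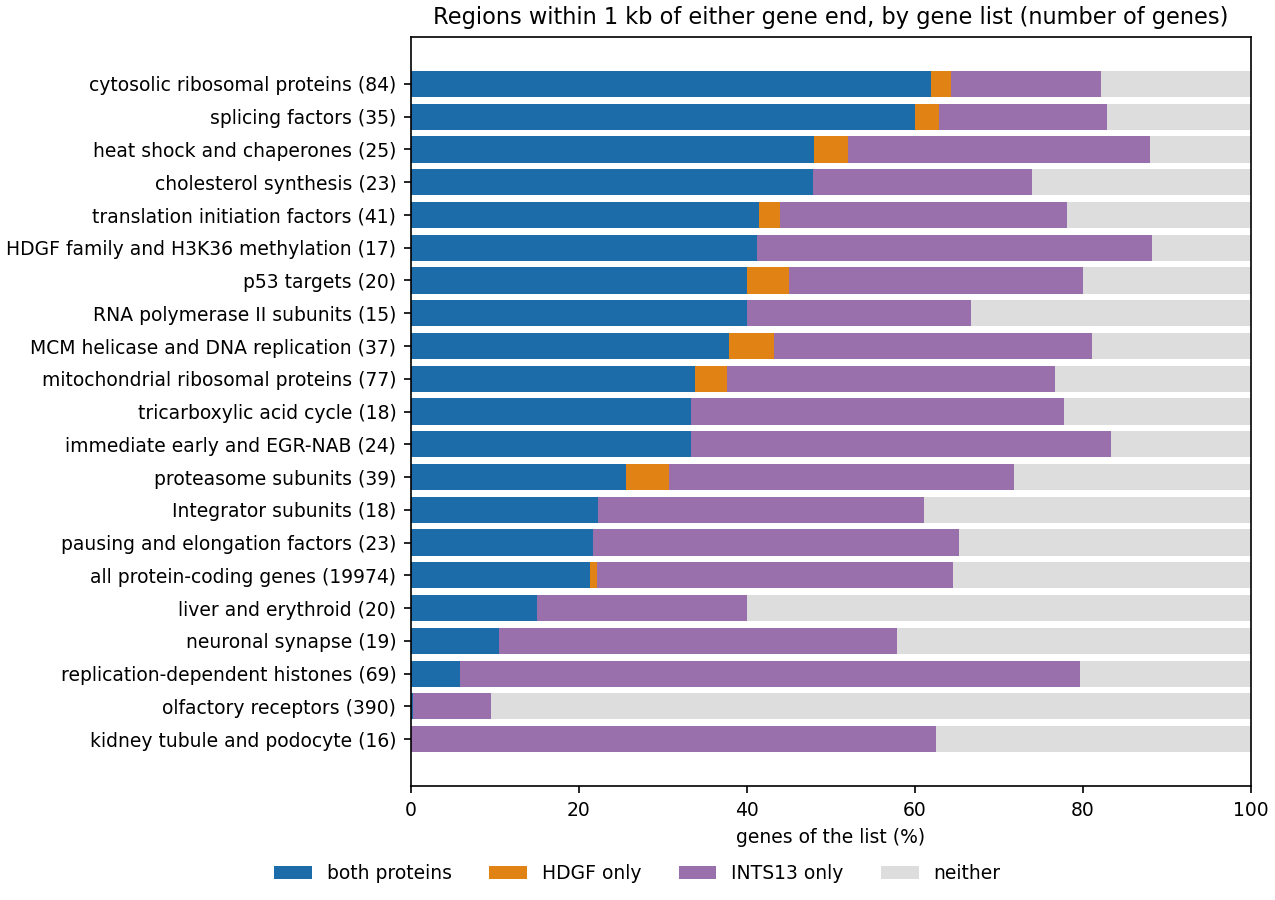
Percentage of the genes of each of 20 lists, and of all 19974 protein-coding genes, with regions of both proteins, HDGF only, INTS13 only or neither within 1 kb of either gene end, ordered by the share with both. Cytosolic ribosomal protein genes (52 of 84) and splicing factor genes (21 of 35) are at the top, replication-dependent histone genes are mostly INTS13 only (51 of 69), and the HDGF-only share is small in every list.

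Among the 10000 strongest summits over all bins, HDGF summits lay nearer to those of the other HDGF list than to INTS13 summits, and neither outside dense bins nor over every peak was this order kept. From the 10000 strongest HDGF summits, the median distance to the nearest summit of the other HDGF list was 456 and 476.5 bp. To the nearest INTS13 summit it was 659 and 676 bp for INTS13 replicate 1 and 871 and 892 bp for replicate 2. From the 10000 strongest INTS13 summits, the nearest HDGF summit was at medians of 710 to 850 bp, and the other INTS13 list at 570 and 284 bp. Within 250 bp lay an HDGF summit of the other replicate for 32.7% and 32.2% of the HDGF summits, and an INTS13 summit for 20.1% to 26.1%. Over every peak, HDGF replicate 1 summits were at a median of 1218 bp from the other HDGF list and at 733 and 899 bp from the INTS13 lists, and HDGF replicate 2 summits at 783 bp and at 711 and 873 bp. From the 10000 strongest HDGF summits outside dense bins, the other HDGF list was at medians of 1064 and 796 bp, and INTS13 summits were at 734 to 900 bp. From the INTS13 summits there, the other INTS13 list was at 469 and 366 bp, and HDGF summits were at 2208 to 5953 bp. Lists with more peaks offer nearer summits, so distances to different lists are not on a common scale.

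**Figure D5:**
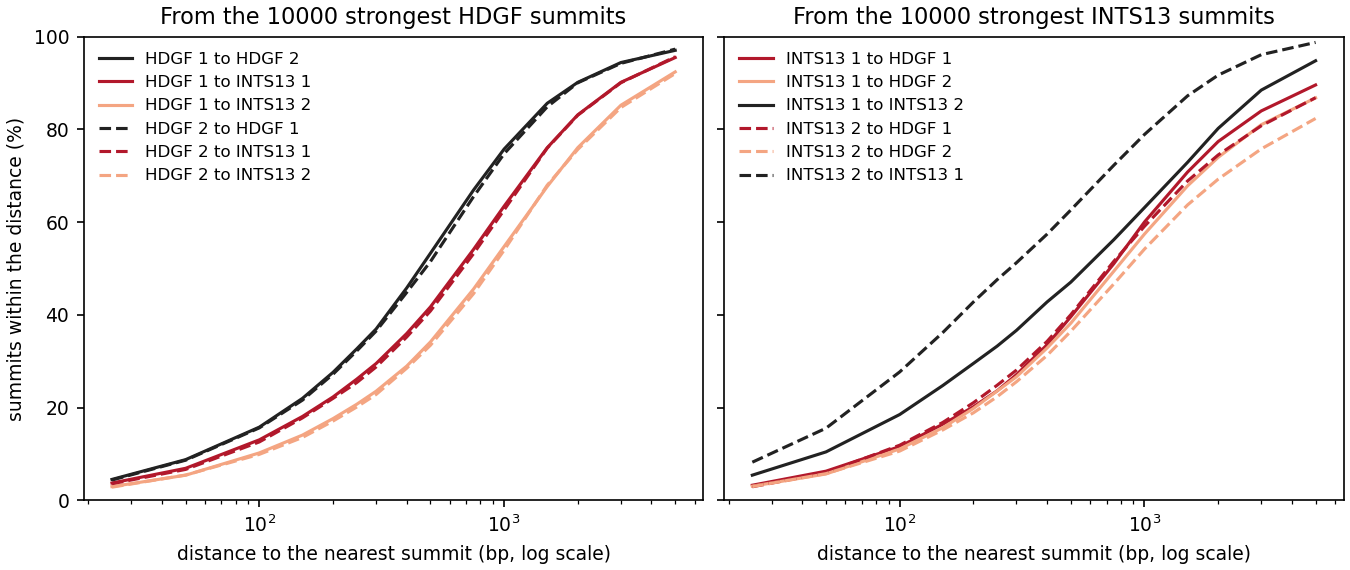
Cumulative percentage of the 10000 strongest HDGF (left) and INTS13 (right) summits with a summit of another list within the distance on the horizontal axis (bp, log scale); black lines lead to the other replicate of the same protein, coloured lines to the other protein, and solid and dashed lines start from replicates 1 and 2. For HDGF, over all bins, the black lines lie above the coloured lines at every distance drawn, with 32.7% and 32.2% within 250 bp against 20.1% to 26.1%.

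Peak ranks of the proteins followed each other weakly where they overlapped. Over 31687 HDGF regions with a peak in all 4 lists, Spearman's rho between ranks was 0.365 for the HDGF replicates and 0.645 for the INTS13 replicates. Between HDGF and INTS13 lists it ran from 0.244 to 0.287. Over 6644 such regions outside dense bins, these values were 0.223, 0.339 and 0.127 to 0.194. These correlations are across regions that share libraries, widths and local peak density, and are given without a test.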

How the data were processed

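HDGF and INTS13 had 2 libraries each, and the deposited file of each library is a peak list, so the authors called peaks per library and did not pool replicates. Per the submitters' processing notes, FastQC, Trimmomatic, Bowtie, Picard and MACS2 were used. Tool versions, calling thresholds, the control and the genome build: not given in the sources used here. Names of alternate contigs match GRCh38, taken as the build by inference. The deposited fold is the authors' linear ratio of peak height over background. Each peak's p-value and q-value were deposited by the authors as −log10 values, with a score of 10 times the −log10 q. Such values were used within lists only. Read depth is unknown, and counting errors of peaks cannot be given.

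Peaks on chromosomes 1 to 22 and X were merged into regions with Python 3.11.15, numpy 2.4.6, pandas 2.3.3 and scipy 1.17.1, and the interval code was tested on simulated data. Figures were drawn with matplotlib 3.10.9. Gene positions, gene types and promoters came from RefSeq (GRCh38.p14); a region was at a gene when it overlapped a window of 1 kb around either end. A gene's value in a list is that of its strongest peak in those windows. Named genes were the 10 with the highest lowest percentile over the lists concerned: over all 4 lists for genes with both proteins, and, for genes with 1 protein, over its 2 lists and with no peak of the other protein. The same was done outside dense bins, and members of the gene lists were named as well. A gene that the rule names is not reported here. Regions and genes are not replicates, so their shares are described without a test, and the 1 test over libraries was an exact permutation test. The members and lists were chosen with earlier results of these data known. Dense bins and the shares of midpoints inside genes were added after seeing the data. Alternatives were a −log10 q of 5 or more, the 10000 strongest peaks, stricter overlap, summits, other windows, gene starts and leaving out each list. Input libraries, chromosome Y and alternate contigs were not used.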

Additional observations from a re-analysis of the deposited data

Results flagged for a closer look

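Some peaks lay on alternate contigs, copies of loci that the comparisons leave out. There were 22 in HDGF replicate 1, 12 in HDGF replicate 2, 93 in INTS13 replicate 1 and 68 in INTS13 replicate 2. With no peak list of a control library used here, no background level for such peaks was set, and they enter no class.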

How the results depend on the processing

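For the shares and differences given here, levels moved, and the direction changed for the gene-end share of peaks by library. Outside dense bins, the order of the HDGF classes turned over 50 kb from genes and at 1 to 5 kb downstream of starts. That of HDGF summit distances was not kept. Some gene lists crossed the share of all genes with both proteins there, tricarboxylic acid cycle genes among them. INTS13 was at 76.6% of HDGF regions, and at 84.3% with a −log10 q of 5 or more, 55.1% with the 10000 strongest peaks, 67.9% with 50% of the region overlapped, 72.5% by summit, 55.4% outside dense bins and 87.2% where either list counts. HDGF was at 13.1% of INTS13 regions, and in the same order at 9.17%, 34.2%, 6.15%, 10.3%, 5.77% and 35.0%. HDGF genes with INTS13 (96.4%) were 86.4% at the q limit, 58.4% with the strongest peaks, 92.2% outside dense bins and 99.7% where either list counts. The gene-end difference for HDGF was 3.07 points with the strongest peaks, 5.25 with a 500 bp and 4.10 with a 5 kb window, 3.69 by midpoint, 4.95 at starts only and 11.3 outside dense bins. For INTS13 it was 8.48 at the q limit, 14.8 with a 5 kb window, 3.76 by midpoint, 7.09 at starts only, 18.9 outside dense bins and 8.11 where either list counts. The inside-gene difference for HDGF was 15.9 points at the q limit, 24.6 with the strongest peaks and 7.89 outside dense bins. For INTS13 it was 9.53, 14.8 and 23.1, and 18.0 where either list counts. The gene-end share of peaks by library turned from 1.17 to -3.78 points with the strongest peaks and -0.32 with a 500 bp window. The cause of these shifts was not tested.

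With each list left out in turn, INTS13 was at 58.7% to 80.7% of HDGF regions, HDGF at 8.78% to 27.8% of INTS13 regions and INTS13 at 91.7% to 99.5% of HDGF genes. The gene-end difference was 5.14 to 8.22 points for HDGF and 8.09 to 10.0 for INTS13, and by library 0.692 to 1.66. The inside-gene difference was 10.8 to 13.6 and 16.1 to 18.4 points. No paired analysis was possible because the results come from no test that could hold a block, and the 1 test over 4 libraries cannot go below 0.333. Depth is unknown, so a missing INTS13 peak does not show that INTS13 was absent.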
